A study of Mus musculus with 12 samples.

Results

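The genes of cholinergic and motor neurons were followed in RNA of the lumbar spinal cord, the segment that holds the motor neurons of the hind limbs. They comprise 10 genes, chosen by name and matched by mouse symbol to the Ensembl identifiers in the counts, out of 49548 genes counted. Each of the 10 had reads in every library. The study asked whether transcripts of the lumbar cord differ between a mouse model of Charcot-Marie-Tooth disease type 2A and controls. The 8 MFN2 mice were hemizygous MitoCharc1 animals on a mixed B6 and D2 background, which carry a human MFN2 transgene with the R94Q substitution under the rat Eno2 promoter, active mainly in neurons, and keep both copies of mouse Mfn2. The 4 WT mice are labelled C57BL/6 and described in the methods as littermates. All mice were taken at 30 days of age without treatment, and 1 library was made per mouse. The MFN2 libraries are numbered 41 to 43 and 72 to 76, and the WT libraries 44 to 47, so that for the MFN2 libraries 72 to 76 the run of numbers and the genotype cannot be told apart. Total counts were 19359454 to 26738930 in MFN2 mice and 19453238 to 23564568 in WT mice.

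Spinal motor neurons release acetylcholine onto muscle. Choline acetyltransferase makes the transmitter, a vesicular transporter loads it into vesicles, acetylcholinesterase splits it in the synaptic cleft, and a high-affinity transporter returns the choline to the nerve ending. LIM and HB9 homeodomain factors set up motor neuron identity in the embryo and remain detectable in the adult cord, while peripherin, the peptide CGRP and the protease MMP9 mark adult motor neurons or groups of them. In whole cord, fewer cells of a type and less RNA per cell cannot be told apart.

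On GRCm38, Chat (choline acetyltransferase, ENSMUSG00000021919) occupies bases 32408203 to 32465989 of chromosome 14, minus strand. Slc18a3 (vesicular acetylcholine transporter, ENSMUSG00000100241) lies inside it, at 32462438 to 32464850 and in the same orientation. In the GENCODE M21 annotation the exons of the nested genes share 0 bases, and their starts are 1139 bases apart. Slc5a7 (choline transporter, ENSMUSG00000023945) occupies 54273590 to 54299034 of chromosome 17, minus strand. Prph (peripherin, ENSMUSG00000023484) spans 99055174 to 99058978 of chromosome 15, plus strand. A stretch before the start of each of these 4 genes is printed because Chat and Slc18a3 are nested, and because Slc5a7 and Prph were the members whose levels were closest to Chat (r = 0.93) and to Slc18a3 (r = 0.89) over the 11 libraries other than library 43, as described further on. Sequences are from RefSeq on GRCm38.p6, run 5′ to 3′ on the strand of the gene and end at the base before its annotated start. Capitals mark matches on either strand to the box CCAAT, to GGGCGG (the core of the GC box) and to TATAAA (the TATA box).
Chat, chr14:32465990-32466159: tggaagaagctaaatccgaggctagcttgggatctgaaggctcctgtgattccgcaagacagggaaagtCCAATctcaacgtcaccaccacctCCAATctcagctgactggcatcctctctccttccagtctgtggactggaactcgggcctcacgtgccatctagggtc
Slc18a3, chr14:32464851-32465100: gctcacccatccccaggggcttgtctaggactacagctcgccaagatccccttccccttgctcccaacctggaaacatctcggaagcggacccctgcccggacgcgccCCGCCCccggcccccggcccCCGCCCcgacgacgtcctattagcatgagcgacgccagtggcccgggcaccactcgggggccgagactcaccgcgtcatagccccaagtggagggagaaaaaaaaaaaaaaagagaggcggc
Slc5a7, chr17:54299035-54299284: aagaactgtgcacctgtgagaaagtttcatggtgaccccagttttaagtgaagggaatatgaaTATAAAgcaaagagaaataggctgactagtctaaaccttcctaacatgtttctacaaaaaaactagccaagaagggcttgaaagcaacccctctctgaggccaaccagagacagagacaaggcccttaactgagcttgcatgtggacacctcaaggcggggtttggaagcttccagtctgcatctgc
Prph, chr15:99054924-99055173: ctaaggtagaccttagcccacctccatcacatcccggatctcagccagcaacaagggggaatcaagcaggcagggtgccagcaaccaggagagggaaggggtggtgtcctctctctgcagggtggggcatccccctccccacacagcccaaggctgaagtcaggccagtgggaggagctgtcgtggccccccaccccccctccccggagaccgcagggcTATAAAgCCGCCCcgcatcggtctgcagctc

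The RefSeq table held a window for 9 of the 10 members, and motifs were counted in the 250 bases before each RefSeq start, overlapping matches included. TATAAA was present before Prph, 31 bases from the start, and before Slc5a7, 187 bases from the start, and 12.4% of all 32851 windows held it. CCAAT was present before Chat, Isl1, Mnx1 and Calca (33.8% of all windows). GGGCGG was present before Slc18a3, Ache, Slc10a4, Mnx1 and Prph (32.7% of all windows). The homeodomain motif TAATTA was in 0 of the 9 windows and in 4.84% of all windows. Chat and Slc18a3 shared none of these motifs, so the stretches before the nested genes differ in the letters searched.

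The remaining members are Ache (acetylcholinesterase, ENSMUSG00000023328), Slc10a4 (a vesicle protein of cholinergic and monoaminergic neurons, ENSMUSG00000029219) and Mnx1 (the motor neuron factor HB9, ENSMUSG00000001566), all on chromosome 5, Isl1 (a LIM homeodomain factor, ENSMUSG00000042258) on chromosome 13, Calca (calcitonin and alpha-CGRP, ENSMUSG00000030669) on chromosome 7, and Mmp9 (matrix metalloproteinase 9, a marker of fast motor neurons, ENSMUSG00000017737) on chromosome 2. The exons of Ache share 98 bases with Gm42456, a noncoding gene on the opposite strand that had 5 to 26 counts per library against 890 to 3357 for Ache. Gm2990, antisense inside Chat, shares 0 exon bases with it and had 4 to 21 counts per library. The sources used here do not say whether reads were counted by strand.

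The labels were first checked against marker genes, and the MFN2 library 43 went against its label. Caudal Hox genes, which mark the spinal cord from brachial to lumbar levels, summed to 54.5 CPM (counts relative to the total of the library, scaled by the TMM method) in library 43 and to 318 to 405 CPM in the other 11 libraries. This sum rests mainly on Hoxb8 and Hoxa7 and does not place the other libraries at the lumbar level. Hoxd10, a lumbar gene, ran from 0.235 CPM in library 45 to 31.5 CPM in library 42. Forebrain genes summed to 4777 CPM in library 43 and to 112 to 209 CPM in the others, with Camk2a, a kinase of excitatory forebrain neurons and the most abundant gene of the list, at 1915 CPM in library 43. All 8 forebrain genes that could be tested were highest in this library. Tbr1, a factor of cortical neurons, stood at 89.5 CPM there and at 0.8 CPM or less elsewhere. Phox2a, the most abundant of the cranial motor neuron markers, was at 0 CPM in library 43 and at only 0.156 to 0.651 CPM in the others. Tbx20, of the same list, was at 0.187 CPM in library 43 and at 0 to 0.350 CPM in the others. These markers summed to 0.187 CPM in library 43, within the 0.156 to 1.05 CPM of the others, and do not set it apart. Because of the Hox and forebrain genes, the results that follow are given with and without library 43.

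All 10 members were lowest of the 12 libraries in library 43, where 28.7% of the 15942 tested genes were lowest. Against the median of the other 11 libraries, the level in library 43 was 0.0899 times for Calca, 0.118 times for Prph and 0.141 times for Mnx1. It was 0.233 times for Chat, 0.363 times for Ache and 0.387 times for Mmp9, the highest ratio among the members, while the median over all tested genes was 0.982 times. The enzyme that splits acetylcholine and the protease thus lay closest to the other libraries, and the peptide and filament genes farthest. Genes of all neurons summed to 3571 CPM there and to 2670 to 3397 CPM in the others, but Syt1 held 1156 CPM of the sum in library 43, at 6.39 times the others' median. Of the 7 genes of this list, 2 were lowest in library 43, Snap25 (0.765 times) and Tubb3 (0.734 times). Another 3 were highest there, Syt1, Rbfox3 (172 CPM, others at most 129 CPM) and Elavl4 (87.7 CPM, others at most 83.5 CPM). Stmn2 (304 CPM) and Uchl1 (341 CPM) lay within the range of the other libraries. The part of forebrain RNA in the low levels of the members was not tested.

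**Figure D1:**
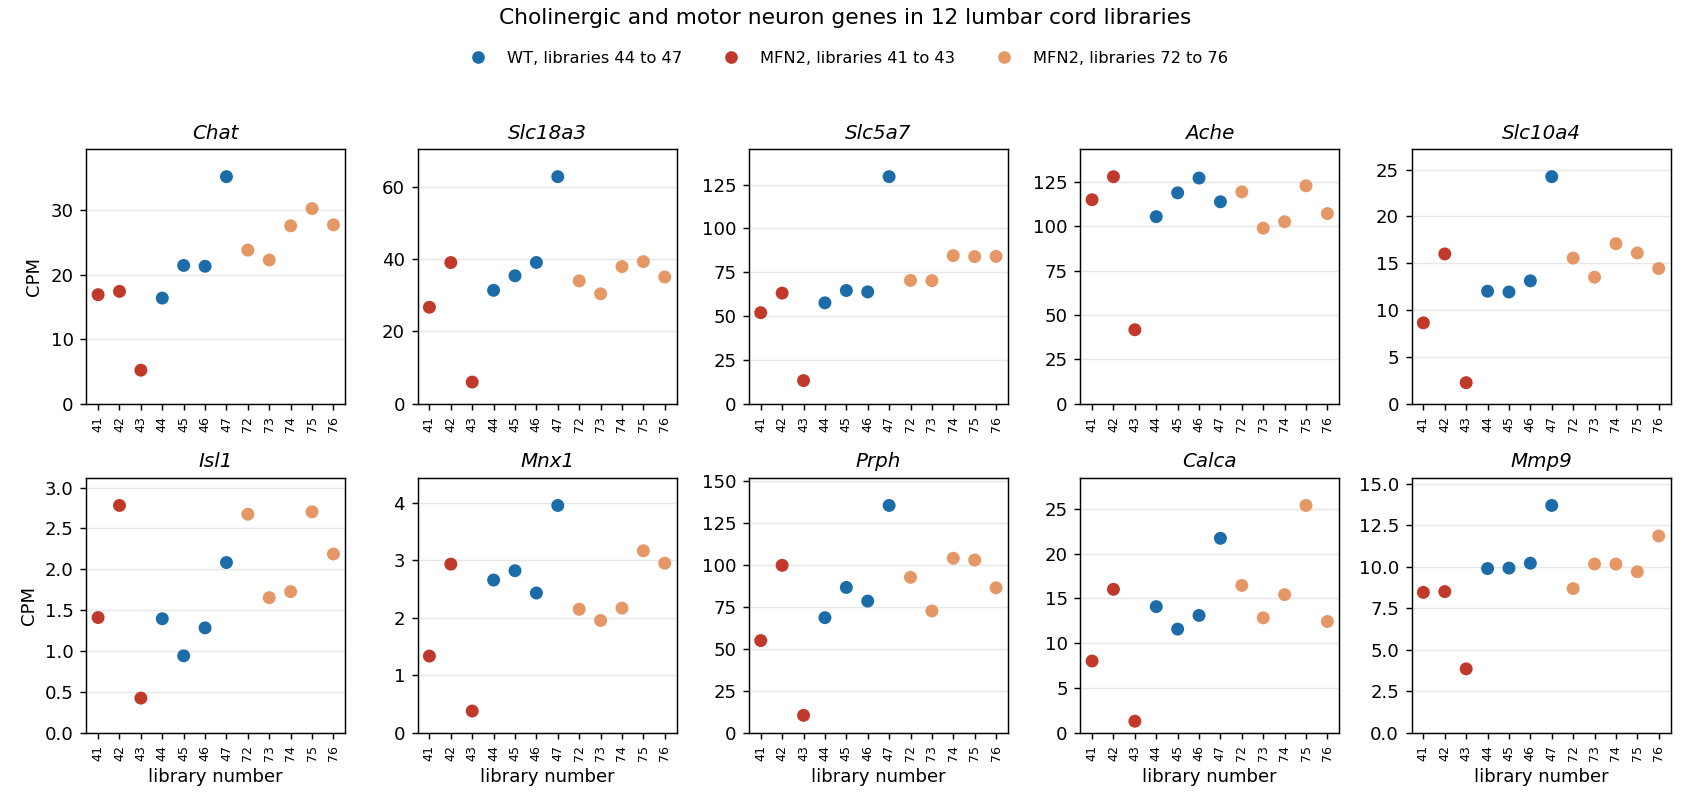
Level of each of the 10 members (CPM, linear axis from 0) in the 12 libraries, ordered by library number, with 1 point per mouse, WT in blue, MFN2 41 to 43 in red and MFN2 72 to 76 in orange. Library 43 is the lowest point in every panel and WT library 47 the highest in 7 of 10.

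Levels per length were ordered in the 4 WT mice by RPKM, the CPM divided by the exon length in kilobases. Prph was highest at 46.2 ± 14.9 RPKM (SD, n = 4), followed by Ache at 25.1 ± 1.97, Slc18a3 at 17.5 ± 5.86 and Slc5a7 at 13.98 ± 6.01 RPKM. Calca stood at 8.97 ± 2.68, Slc10a4 at 7.28 ± 2.84 and Chat at 5.01 ± 1.72 RPKM. Mmp9 followed at 3.09 ± 0.522 RPKM, and the transcription factors were lowest, Mnx1 at 1.32 ± 0.302 and Isl1 at 0.360 ± 0.121 RPKM. The WT ranges of neighbours in this order did not overlap between Prph and Ache, between Mmp9 and Mnx1 and between Mnx1 and Isl1. They overlapped for the other 6 neighbouring pairs, from Ache and Slc18a3 down to Chat and Mmp9. Per length, the transporter Slc18a3 was thus above Chat, the gene that encloses it. The methods head the protocol as 3′-mRNA sequencing, for which a division by exon length may not apply. By CPM in the same WT mice, Slc18a3 (42.2) was also above Chat (23.6). Other places in the order changed by CPM, with Ache (116) above Prph (92.3) and Chat above Slc10a4 (15.3) and Calca (15.1). The factors rested on few reads, 8 to 82 counts per library for Mnx1 and 9 to 73 for Isl1, and their values are less precise than those of the other members, which had at least 27 counts in library 43 and 198 or more in the other libraries.

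Chat stood at 16.9, 17.4 and 5.20 CPM in the MFN2 libraries 41, 42 and 43 and at 23.8, 22.3, 27.6, 30.2 and 27.7 CPM in the MFN2 libraries 72 to 76. In the WT libraries 44 to 47 it stood at 16.4, 21.4, 21.3 and 35.2 CPM. The WT range thus covered 7 of the 8 MFN2 libraries, and its upper end was set by library 47 alone. Slc5a7 followed the same pattern at higher levels. It was at 51.9, 63.1 and 13.2 CPM in MFN2 libraries 41 to 43, at 57.6, 64.6, 63.8 and 129.55 CPM in WT libraries, and at 70.3, 70.2, 84.5, 84.0 and 84.1 CPM in MFN2 libraries 72 to 76. Every MFN2 library of the second run thus lay above WT libraries 44 to 46 and below WT library 47 for both genes.

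Slc18a3, the transporter gene nested in Chat, was arranged differently. It stood at 26.7, 39.1 and 5.99 CPM in MFN2 libraries 41 to 43, at 31.4, 35.4, 39.1 and 62.9 CPM in WT libraries, and at 34.01, 30.4, 37.965, 39.4 and 35.1 CPM in MFN2 libraries 72 to 76. The second run of MFN2 libraries was thus spread over the values of WT libraries 44 to 46. Ache, which removes acetylcholine, varied least. Outside library 43, at 41.7 CPM, it kept between 98.9 and 128 CPM in all libraries, a coefficient of variation of 8.63% over 11 libraries against 25.3% for Chat.

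Slc10a4 was at 8.64, 16.0 and 2.25 CPM in MFN2 libraries 41 to 43, at 12.02, 11.9, 13.1 and 24.3 CPM in WT libraries, and at 15.6, 13.5, 17.1, 16.1 and 14.4 CPM in MFN2 libraries 72 to 76. As for Chat, the second run fell between WT libraries 44 to 46 and WT library 47. Isl1 was at 1.41, 2.78 and 0.421 CPM in MFN2 libraries 41 to 43, at 1.39, 0.940, 1.28 and 2.08 CPM in WT libraries, and at 2.67, 1.65, 1.73, 2.70 and 2.19 CPM in MFN2 libraries 72 to 76. Of the 8 MFN2 libraries, 4 lay above every WT library and library 43 lay below. Mnx1, in contrast, reached 0.374 to 3.17 CPM in MFN2 mice and 2.43 to 3.96 CPM in WT mice, with 5 of 8 MFN2 libraries below every WT library. Without library 43 the lowest MFN2 value of Mnx1 was 1.33 CPM, and 4 of 7 libraries lay below every WT library.

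The markers of adult motor neurons overlapped between genotypes. Prph was at 10.3 to 104 CPM in MFN2 mice (median 89.6) and at 68.6 to 136 CPM in WT mice. Calca was at 1.26 to 25.4 CPM in MFN2 mice (median 14.1) and at 11.6 to 21.7 CPM in WT mice, with its highest value in MFN2 library 75. Mmp9 was at 3.84 to 11.8 CPM in MFN2 mice (median 9.19) and at 9.88 to 13.7 CPM in WT mice, with 5 of 8 MFN2 libraries below every WT library. Library 43 alone set the lower limits in MFN2 mice, which without it were 54.9 CPM for Prph, 7.99 CPM for Calca and 8.45 CPM for Mmp9, with 4 of 7 libraries below every WT library for Mmp9. Over the 11 libraries other than 43, the coefficient of variation was 15.2% for Mmp9 and between 24.3% for Prph and 33.5% for Isl1 for the members other than Mmp9 and Ache.

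WT library 47 was highest of the 12 libraries for 7 of the 10 members (Chat, Slc18a3, Slc5a7, Slc10a4, Mnx1, Prph and Mmp9), where 8.48% of the tested genes were highest. Its level was 1.92 times the median of the 10 libraries other than 43 and 47 for Slc5a7, 1.78 times for Slc18a3 and 1.61 times for Chat, but 0.973 times for Ache. Skeletal muscle genes summed to 226 CPM in library 47, with Myh4, a fast myosin heavy chain, at 114 CPM, and to 231 CPM in MFN2 library 73, where the members were not high. They summed to 2.11 to 43.8 CPM in the other 10 libraries. Hoxc8 was at 69.1 CPM in library 47, the highest of the 12, and Hoxd11, a marker of more caudal segments, at 0.989 CPM. Hoxd11 was at 12.7 CPM or more in libraries 42, 44, 72, 74 and 75, at 2.01 to 5.81 CPM in libraries 43, 73 and 76, and under 1 CPM in libraries 41, 45, 46 and 47. The part of the cord level in the members' levels was not tested.

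**Figure D2:**
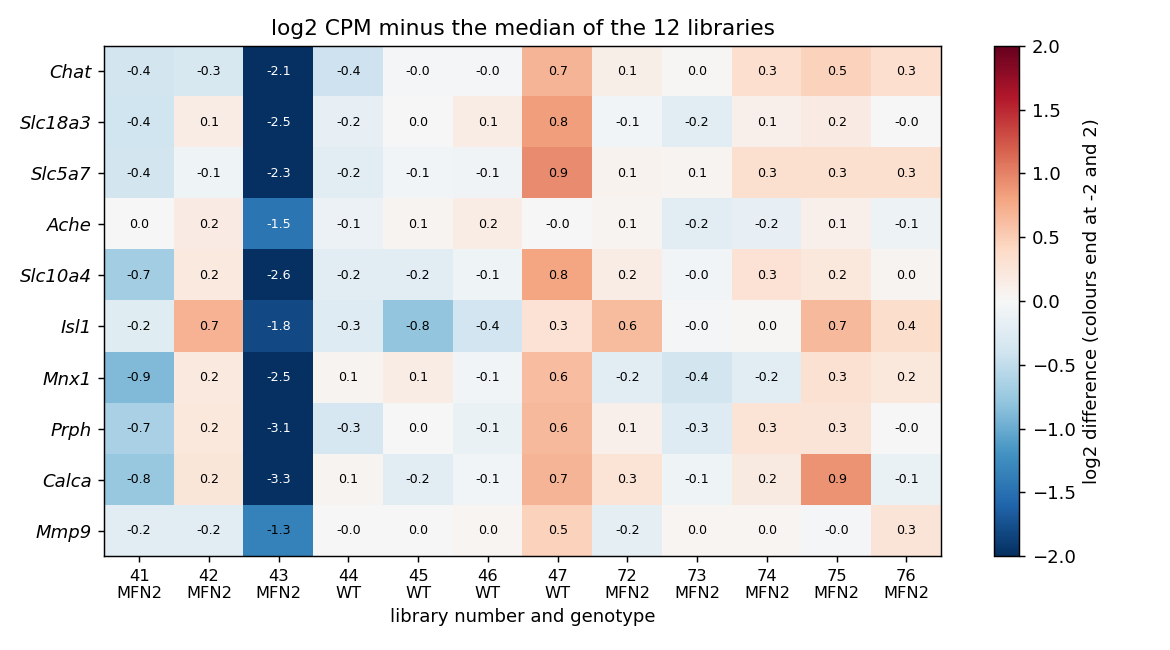
Log2 CPM of each member (rows) in each library (columns, with number and genotype) minus the median of that member over the 12 libraries, with red above and blue below the median and colours ending at 2 log2 units either way. Library 43 is below the median in every row, and library 47 is above it in every row but Ache.

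In the comparison of 8 MFN2 with 4 WT mice, 0 of the 10 members passed an FDR of 0.05, and 0% of the 15942 tested genes did (edgeR quasi-likelihood test with Benjamini-Hochberg adjustment over all tested genes). Without adjustment, 2386 genes had a p under 0.05, and 0 of these were members. Of the members, 9 had a negative log2 fold change (MFN2 minus WT) and Isl1 a positive value, with a median of -0.24 against 0.0038 over all tested genes. The values ran from -0.47 for Mnx1 (95% interval -1.30 to 0.35) and -0.44 for Slc18a3 (-1.22 to 0.34) to 0.45 for Isl1 (-0.39 to 1.30). Adjusted p in the same edgeR test ran from 0.509 for Mmp9 to 0.884 for Calca. Over the 10 members the outer limits of the 95% intervals were -1.30, for Mnx1, and 1.30, for Isl1. Single intervals were narrower, such as -0.63 to 0.32 for Ache and -0.76 to 0.18 for Mmp9. Differences inside the interval of a member remain compatible with these data.

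Without library 43, 0 of the members and 0.12% of 15835 tested genes passed in the same test. The median log2 fold change of the members was then -0.076. Chat moved from -0.14 to 0.010 and Slc18a3 from -0.44 to -0.28, while Isl1 moved to 0.61 (95% interval 0.041 to 1.17, adjusted p = 0.212 from edgeR). The 3 MFN2 libraries 41 to 43 against the 4 WT libraries, all in the first run of numbers, gave 0 members and 0.00658% of 15200 genes, which is Rpsa-ps10 alone, a ribosomal protein pseudogene. The members' median log2 fold change there was -0.78 with library 43 included. With libraries 41 and 42 alone, a setting added after the values were seen, it was -0.33, and 0 members and 0.00667% of 14988 genes were called, again Rpsa-ps10 alone. Chat was then at -0.45 (95% interval -1.12 to 0.23), Slc5a7 at -0.44 (-1.46 to 0.57) and Isl1 at 0.57 (-0.28 to 1.42).

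The 5 MFN2 libraries 72 to 76 against the same 4 WT libraries gave 0 of 10 members, where 23.8% of 15743 tested genes passed. In this comparison Chat had a log2 fold change of 0.16 (95% interval -0.28 to 0.60), Slc5a7 -0.0053 (-0.57 to 0.56), Slc18a3 -0.25 (-0.68 to 0.17) and Ache -0.080 (-0.24 to 0.080). Isl1 was at 2.19 ± 0.501 CPM (SD, n = 5) in these MFN2 libraries against 1.42 ± 0.479 CPM (SD, n = 4), and its log2 fold change was 0.62 (adjusted p = 0.0949 from edgeR). This comparison and the ones above share the WT libraries, and here the run of library numbers and the genotype cannot be told apart.

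WT library 47 decided whether members were called in that comparison. With WT libraries 44 to 46 alone, a setting looked at because library 47 was high for most members, 4 of the 10 members were called, all higher in MFN2 libraries 72 to 76, where 20.6% of 15647 tested genes passed and 10.2% passed in the higher direction. Chat was at 26.3 ± 3.23 CPM (SD, n = 5) against 19.7 ± 2.88 CPM (SD, n = 3), or 0.42 on the log2 scale (adjusted p = 0.0258, edgeR). Slc5a7 was 0.34 higher on the log2 scale (adjusted p = 0.0114 from edgeR), Slc10a4 0.31 higher (adjusted p = 0.0334) and Isl1 0.86 higher (adjusted p = 0.0334). Leaving out a library for its high values lowers the WT means of the same members, so these p-values are not independent of that choice and are given only to show how far the calls depend on library 47. Slc18a3 had a log2 fold change of 0.0036 (95% interval -0.19 to 0.20) and Ache -0.088 (-0.27 to 0.092), and the remaining members lay between -0.089 for Mnx1 and 0.36 for Calca. In the other settings run for the 3 comparisons, 0 members were called.

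**Figure D3:**
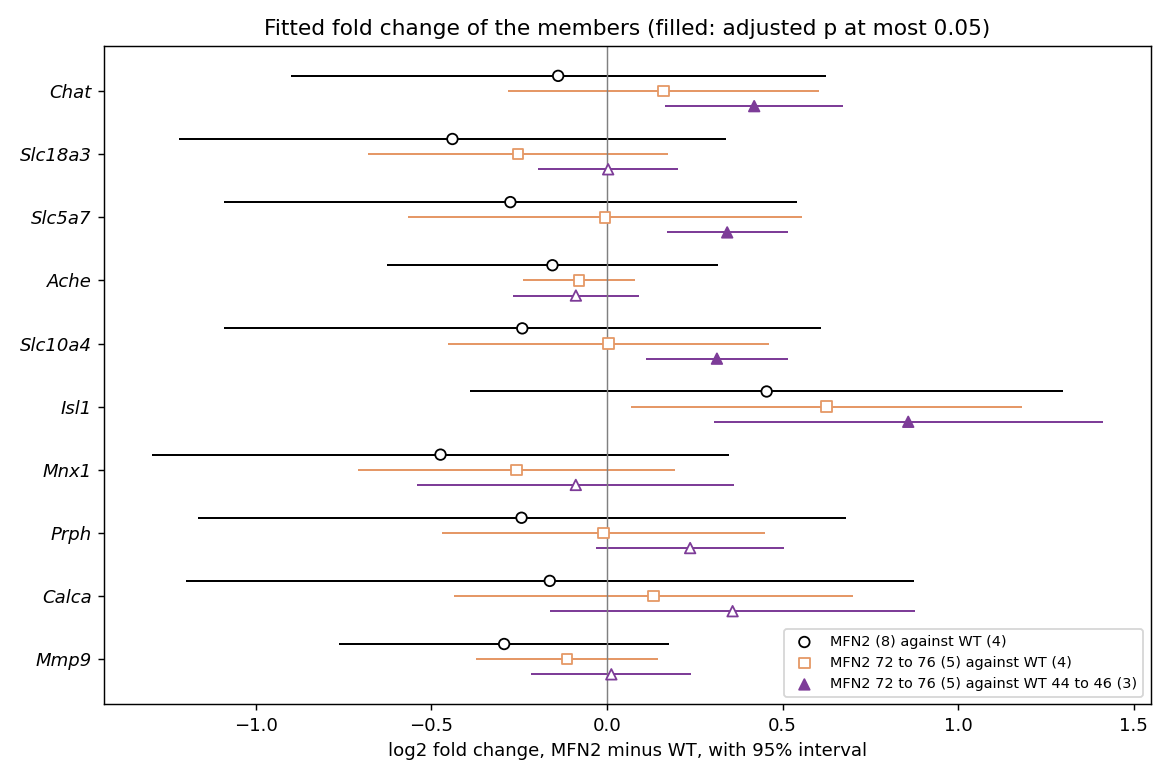
Log2 fold change of each member (MFN2 minus WT, points) with its 95% interval (bars) in 3 comparisons that share WT mice: all 8 MFN2 against 4 WT mice, MFN2 libraries 72 to 76 against 4 WT mice, and the same 5 against WT libraries 44 to 46. Filled points have an adjusted p of 0.05 or less, which holds only for Chat, Slc5a7, Slc10a4 and Isl1 in the comparison without WT library 47.

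The ratio of Slc18a3 to Chat was looked at after these values were seen and is given without a test. In CPM it was 1.92, 1.65, 1.84 and 1.79 in the WT libraries 44 to 47. It was 1.58, 2.25 and 1.15 in MFN2 libraries 41 to 43 and 1.43, 1.37, 1.38, 1.30 and 1.27 in MFN2 libraries 72 to 76. The 5 libraries of the second run were thus below every WT library with little spread (1.35 ± 0.0645, SD, n = 5, against 1.80 ± 0.111, SD, n = 4). Libraries 41 to 43 spread on both sides of the WT values. For libraries 72 to 76 the run of numbers and the genotype cannot be told apart. Only this ratio and that of Slc5a7 to Chat were computed, so how often other gene pairs separate these groups is not known. WT library 47, high for both genes, kept a ratio within those of the other WT libraries. The ratio of Slc5a7 to Chat was 2.996 ± 0.142 (SD, n = 5) in MFN2 libraries 72 to 76 and 3.30 ± 0.349 (SD, n = 4) in WT libraries, and these ranges overlapped.

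**Figure D4:**
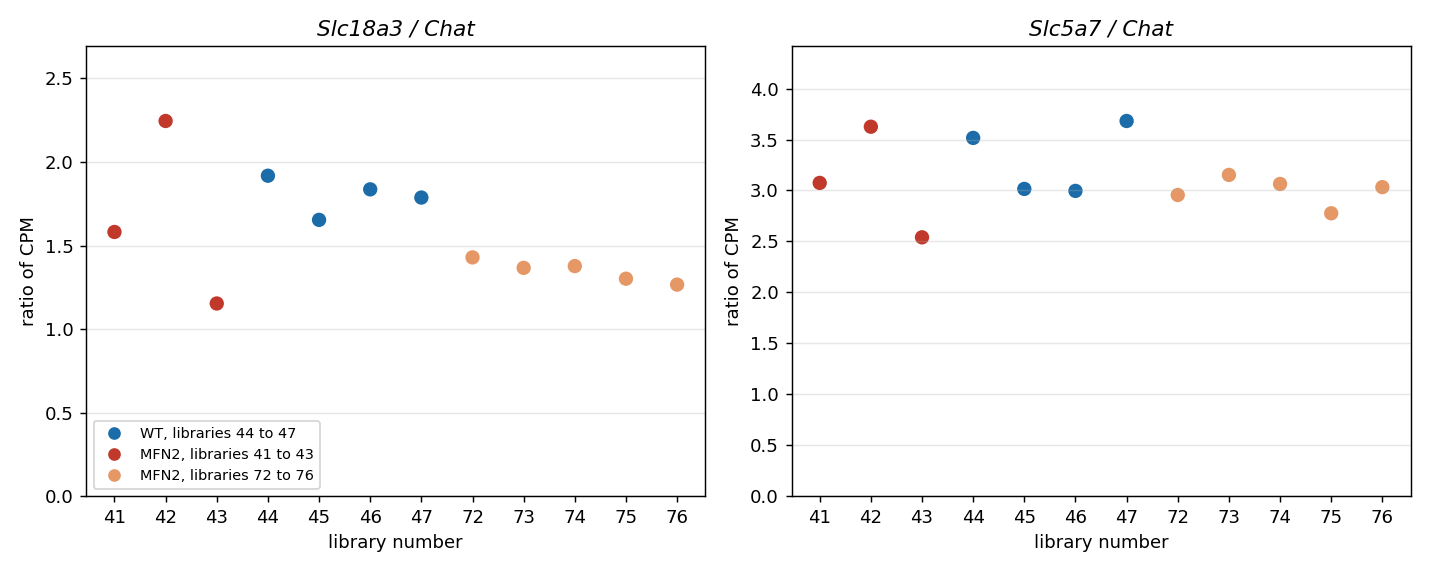
Ratio of CPM in each library, Slc18a3 over Chat on the left and Slc5a7 over Chat on the right, both axes from 0, with 1 point per mouse coloured by genotype and run of library numbers. On the left the 5 MFN2 libraries 72 to 76 (1.27 to 1.43) lie below the 4 WT libraries (1.65 to 1.92), and on the right the groups overlap.

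Co-variation of the members was described by Pearson's r of log2 CPM across libraries, over 45 pairs. Each point is a library, and all libraries share the same scaling. Over all 12 libraries r ran from 0.67 for Isl1 and Mmp9 to 0.99 for Slc10a4 and Prph, with a median of 0.93. The median of Spearman's rho over the same libraries was 0.62. Without library 43 the median r was 0.65, and 18 of 45 pairs kept an r of at least 0.7, against 44 of 45 with it. The high correlations over 12 libraries thus rest largely on library 43.

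Over the 11 libraries without 43, the closest pairs were Slc10a4 and Prph (r = 0.95, rho = 0.90) and Chat and Slc5a7 (r = 0.93, rho = 0.95). Chat and Slc5a7 kept r = 0.95 when library 47 was left out as well. Slc18a3 followed Prph (r = 0.89) and Slc10a4 (r = 0.88) more closely than Chat (r = 0.70, rho = 0.55), the gene that encloses it, and its r with Chat fell to 0.50 over the 10 libraries without 43 and 47. In the 6 libraries of the first run other than 43, which include both genotypes, Slc18a3 and Chat had r = 0.91. Chat and Slc5a7 had r = 0.96 in those 6 libraries. In the 5 libraries of the second run, for which no r is given, the ratio of Slc18a3 to Chat kept between 1.27 and 1.43, so the lower r over both runs goes with a ratio that was higher in the first run other than library 43 (1.58 to 2.25).

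Ache stood outside this pattern. Without library 43 its r with the other members ran from -0.33 for Mmp9 to 0.26 for Slc18a3, with a median of 0.19. The median r with the other members was 0.81 for Slc5a7, 0.78 for Prph, 0.77 for Slc10a4, 0.71 for Slc18a3 and 0.70 for Chat. It was 0.38 for Isl1, whose r with Mmp9 was -0.042. Mnx1, the other transcription factor, had a median of 0.67 and its highest r with Slc18a3 (0.80). Calca was closest to Slc10a4 (r = 0.84) and far from Mmp9 (r = 0.33).

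**Figure D5:**
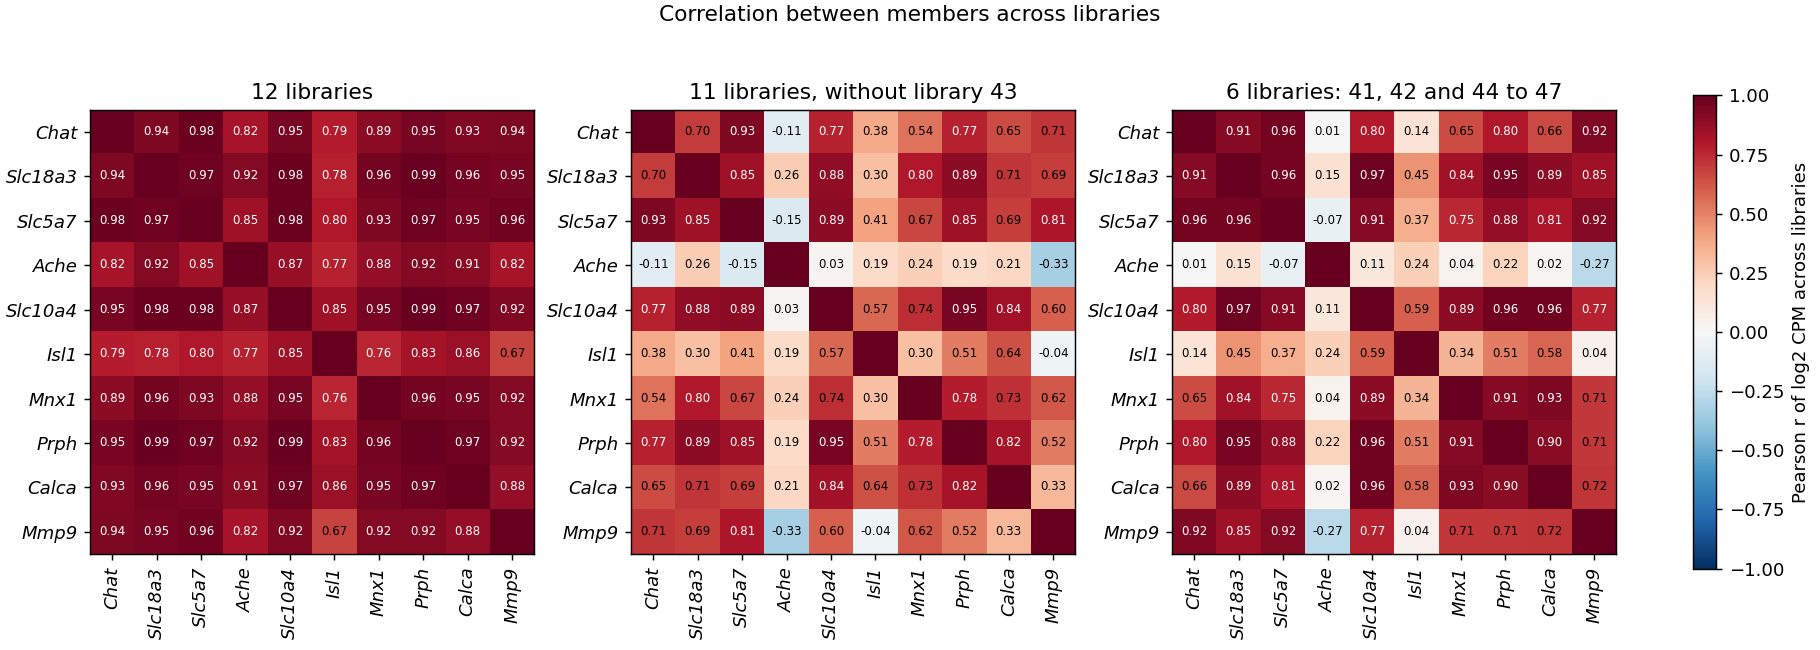
Pearson's r of log2 CPM between each pair of members across 12 libraries (left), the 11 libraries without library 43 (middle) and the 6 libraries 41, 42 and 44 to 47 (right), with red for positive and blue for negative r. All pairs are at 0.67 or above on the left, and the row of Ache turns pale in the other panels.

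Among the 15941 other tested genes, Slc5a7 ranked 1 by likeness to Chat over 12 libraries (r = 0.98) and 2 over 11 libraries. Outside the members, the 5 genes most like Chat over 12 libraries were Chodl, a marker of fast motor neurons (r = 0.98), Pappa, a secreted protease that releases insulin-like growth factors (r = 0.98), Rufy3, a protein of neuronal polarity (r = 0.97), and the neurofilament subunits Nefm and Nefh (both r = 0.97). Over the 11 libraries without 43 they were Gm42444 (r = 0.94), Chodl (r = 0.92), Mest, an imprinted gene (r = 0.91), Rgs4, a regulator of G protein signalling (r = 0.91), and Pappa (r = 0.90). Chodl and Pappa were in both lists. Chodl stood at 3.14 CPM in library 43, at 16.8 to 47.7 CPM in WT libraries with library 47 highest, and at 23.7 to 41.6 CPM in MFN2 libraries 72 to 76. Rgs4 and Mest, in contrast, were at 349.7 CPM and 71.2 CPM in library 43, where Chat was lowest, and Gm42444 did not exceed 2.03 CPM in any library. By the same measure over 11 libraries, Slc18a3 ranked 447, Mnx1 1592 and Ache 9238.

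Other genes of the pathway were read from lists written by hand, and 0 of their genes passed the FDR of 0.05 in edgeR's test between all 8 MFN2 and 4 WT mice or without library 43. The counts below are for MFN2 libraries 72 to 76 against the 4 WT libraries, where 23.8% of all tested genes passed and the median log2 fold change over all of them was -0.00066. Of 9 genes that handle acetylcholine and choline, 1 rose, 1 fell and 7 were not called, with a median of -0.11. Chka, a choline kinase that diverts choline to phospholipid synthesis, rose from 37.4 ± 3.59 CPM (SD, n = 4) to 56.2 ± 5.54 CPM (SD, n = 5), or 0.58 on the log2 scale (adjusted p = 0.000759, edgeR), and in MFN2 libraries 41 to 43 it was at 38.2, 36.0 and 42.5 CPM. Tmem35a, a chaperone of nicotinic receptors, fell by 0.21 on the log2 scale (adjusted p = 0.0378 from edgeR), and was at -0.19 without WT library 47 (adjusted p = 0.0847). Lynx1, which modulates nicotinic receptors and is the most abundant gene of this list, was at 285, 249.7, 264, 287 and 276 CPM in these MFN2 libraries and 234 to 259 CPM in WT libraries.

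Of 16 nicotinic receptor subunits, 6 passed the filter on low counts and 0 were called, with a median of -0.0078. Chrna4, the most abundant, was at 46.5 to 56.5 CPM in MFN2 libraries 72 to 76 and at 42.7 to 57.5 CPM in WT libraries. The muscle subunits Chrna1, Chrnd and Chrne stayed at 0.328 CPM or less in every library, and Chrnb1 was at 0.266 to 0.609 CPM. Of 5 muscarinic receptors 0 were called, with a median of 0.37. Chrm2, the most abundant, had 30.5 CPM in library 43 and 76.8 to 113 CPM elsewhere, whereas Chrm1, abundant in forebrain, had 129.9 CPM in library 43 and 1.32 CPM or less elsewhere. Without WT library 47, Chrm2 was called at 0.28 on the log2 scale (adjusted p = 0.0235, edgeR).

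Of 6 genes of the CGRP family and its receptor, 5 were tested, 1 rose and 1 fell. Ramp1, the subunit that gives the receptor its affinity for CGRP and the most abundant gene of the list, fell from 71.2 ± 3.26 CPM (SD, n = 4) to 60.9 ± 3.18 CPM (SD, n = 5), or -0.23 on the log2 scale (adjusted p = 0.00857, edgeR). Ramp2, the subunit for adrenomedullin, rose by 0.27 (adjusted p = 0.0427 from edgeR), and was at 0.25 without WT library 47 (adjusted p = 0.1002). Calcb, the paralog of Calca, had 0.562 CPM in library 43 and 8.85 CPM in library 47, the lowest and highest of the 12 libraries, as for 7 of the members. Calca and Calcb are close paralogs, and how the authors' counting treated reads shared between them is not given in the sources used here.

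Of 7 further motor neuron genes, transcription factors and the retinoic acid enzyme Aldh1a2, 0 were called, with a median of -0.091. Of these genes, 5 were lowest in library 43. The other 2, Foxp1 at 89.7 CPM and Aldh1a2 at 6.18 CPM, were highest there, and the list's sum in library 43 (139.6 CPM) lay within the 115 to 153 CPM of the others. Esrrg, a nuclear receptor of gamma motor neurons and the most abundant of the list, had 38.4 CPM in library 43 and 73.3 to 90.5 CPM elsewhere. Of 13 genes of motor neuron subtypes and adult motor neurons, 11 were lowest in library 43 and 5 highest in library 47. Of these 13, 1 rose, 2 fell and 10 were not called, with a median of -0.062. Nefm, a neurofilament subunit and the most abundant, rose by 0.35 (adjusted p = 0.0472 from edgeR), and was at 2573, 3304 and 623 CPM in MFN2 libraries 41 to 43 against 2714 to 4413 CPM in WT libraries. Wnt7a, a secreted Wnt ligand and a marker of gamma motor neurons, fell from 13.5 ± 2.14 CPM (SD, n = 4) to 8.23 ± 0.723 CPM (SD, n = 5), or -0.71 on the log2 scale (adjusted p = 0.00124, edgeR), and was at 16.2, 18.8 and 12.9 CPM in MFN2 libraries 41 to 43. Vamp1, a synaptic vesicle SNARE, fell by 0.32 (adjusted p = 0.00201 from edgeR), and was at 501, 536 and 113 CPM in MFN2 libraries 41 to 43. Of 3 genes of preganglionic neurons and cholinergic interneurons 2 were tested and 0 called, and Nos1, the most abundant, was at 54.5 to 69.3 CPM against 56.99 to 82.6 CPM in WT libraries. Without WT library 47, Nos1 was called lower by edgeR, with -0.29 on the log2 scale and an adjusted p of 0.0344.

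Markers of other cells that could carry or dilute these transcripts were read in the same comparison. Dorsal root ganglion neurons also express Calca, Prph and Isl1. Of their defining genes, 3 of pain-sensing neurons were near 0. Scn10a stayed at 0.374 CPM or less, Trpv1 at 0.234 CPM or less and Mrgprd at 0.153 CPM or less in every library. Of 10 such genes 2 were tested and 0 called, and the most abundant, Pou4f1, was at 4.94 to 11.3 CPM and P2rx3 at 0.614 to 1.72 CPM. Genes of neutrophils, which also store MMP9, summed to 83.5 CPM in WT library 44 with S100a9 at 19.5 CPM, and Mmp9 was not high there. Of 6 tested neutrophil genes 0 were called.

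Of 6 genes of red blood cells 1 rose, Alas2, the enzyme that starts haem synthesis in these cells, by 1.18 on the log2 scale (adjusted p = 0.0479 from edgeR). Hbb-bs, their most abundant gene, was at 45.5 to 114 CPM in MFN2 libraries 72 to 76 and at 31.0 to 73.03 CPM in WT libraries. Of 6 skeletal muscle genes and of 13 caudal Hox genes 0 were called, and the most abundant Hox gene, Hoxb8, was at 103 to 113 CPM against 74.2 to 123 CPM. Hoxb8 does not stand for the whole list, whose log2 fold changes ran from -0.66 for Hoxc8 to 1.39 for Hoxd10, with a median of 0.11. Hoxa11 (1.36), Hoxc11 (1.245) and Hoxd11 (1.25) lay near the upper end. Of 8 tested forebrain genes Nrgn, a calmodulin-binding protein of forebrain neurons, rose by 0.57 (adjusted p = 0.00548 from edgeR), and of 3 tested striatal and basal forebrain genes Ppp1r1b, which encodes DARPP-32 and is the most abundant, fell by 0.81 (adjusted p = 1.51e-05). Lhx8, a factor of basal forebrain cholinergic neurons, stayed at 0.328 CPM or less. Of 3 cranial motor neuron markers 0 passed the filter on low counts.

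Of 7 genes of all neurons, Syt1, a calcium sensor of synaptic vesicles, rose by 0.47 (adjusted p = 0.0327) and Snap25, a synaptic SNARE and the most abundant, fell by 0.18 (adjusted p = 0.0414 from edgeR). Of 4 astrocyte genes 3 fell, Gfap, an intermediate filament, by 1.08, Aldh1l1 by 0.30 and Slc1a2, a glutamate transporter and the most abundant, by 0.16. Of 4 microglia genes 4 fell, Cx3cr1 by 0.51, P2ry12 by 0.29, Tmem119 by 0.76 and Csf1r, the most abundant, by 0.33, with adjusted p from 0.00114 to 0.0468 in edgeR's test. In MFN2 libraries 41 to 43 against WT the median of these 4 microglia genes was 0.23, and 0 were called. Without WT library 47 the calls of Alas2, Snap25, Slc1a2, P2ry12 and Csf1r were lost, with adjusted p from 0.0713 for Snap25 to 0.135 for P2ry12 in edgeR's test. Their log2 fold changes were then 1.199, -0.18, -0.15, -0.22 and -0.31, in the same directions, in a test with 1 WT library fewer. In the same setting Ddn, a forebrain gene, was called at 1.21 on the log2 scale (adjusted p = 0.00344). The part of these cells in the members' levels was not tested.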

How the data were processed

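RNA of the lumbar cord of 8 MFN2 and 4 WT mice was sequenced. The methods name 3′-mRNA sequencing in a heading, and poly(A) mRNA sequencing beside a stranded kit for total RNA in the text. Which RNA entered the libraries, and whether reads cover whole transcripts, is thus uncertain. Per the submitters' processing notes and the methods, the authors aligned reads with STAR to GRCm38.p6. The deposited values are raw counts of reads for each Ensembl gene. Which counter was used, and whether it used the strand, is not given in the sources used here, so antisense and overlapping genes and close paralogs are uncertain. Of 49548 genes, 49289 matched a symbol in GENCODE M21, and 0 were mitochondrial. The human transgene was not analysed here, so the genotype labels were not checked by a transcript in these counts. The labels do not give the sex of the mice, and Xist was at 0.266 CPM or less in libraries 41, 43 and 44 and at 257 CPM or more in the others. In 34 pairs of libraries of the same genotype, the chi-square of the counts per degree of freedom was at least 5.34, so no library was counted as a repeat of another.

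Genes above 1 CPM in at least 3 libraries were scaled by TMM and tested in edgeR 4.0.16 (R 4.3.3) with the quasi-likelihood test, robust and in its legacy form, with Benjamini-Hochberg adjustment over all tested genes at an FDR of 0.05. The methods name edgeR and this FDR. Standard errors came from the F statistic, and 95% intervals from the t distribution with the fit's degrees of freedom. Log2 CPM used a prior count of 2, and RPKM the length of merged exons. The test was checked on simulated counts. Alternatives were RLE scaling, library size alone, no filter, DESeq2 1.42.0, limma 3.58.1 (voom), each run of library numbers against WT, covariates for the run, forebrain genes or Xist, and each library left out in turn. Leaving out libraries 43 and 47 together, and WT library 47 for single members in MFN2 libraries 72 to 76 or MFN2 library 43 in libraries 41 to 43, was added after the data were seen.

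The 10 members and 20 gene lists were chosen with earlier results of these data known. The results of 2 of these lists are not reported here. Named genes are the members, the 5 genes most like Chat by Pearson's r over 12 and over 11 libraries, and, from each list, the most abundant gene and the genes past the FDR. Xist, Rpsa-ps10, Gm2990, Gm42456 and the further list genes whose levels are given (such as Tbr1, Hoxc8, Hoxd11, Calcb, Chrm1, Scn10a, Trpv1, Mrgprd, Lhx8 and the muscle receptor subunits) were named after their values were seen. Total counts limit the precision of genes near 1 CPM, such as Isl1 and Mnx1. No mouse was called a pair of another.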

Additional observations from a re-analysis of the deposited data

Results flagged for a closer look

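The members were screened within each genotype on log2 CPM by the gap between the lowest or highest library and its nearest neighbour, divided by the range of the group. Of 20 groups, 13 exceeded the 95% critical value, where chance gives about 1. In 10 of them the MFN2 library 43 lay below the other 7 MFN2 libraries. The ratio there was 0.668 for Chat, 0.793 for Slc18a3, 0.738 for Slc5a7, 0.771 for Ache, 0.661 for Slc10a4, 0.623 for Isl1, 0.575 for Mnx1, 0.724 for Prph, 0.609 for Calca and 0.698 for Mmp9. In the other 3 groups WT library 47 lay above the other 3 WT libraries, with a ratio of 0.858 for Slc5a7, 0.866 for Slc10a4 and 0.901 for Mmp9. The members share their libraries, so these are not 13 separate observations.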

How the results depend on the processing

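No paired analysis was possible because MFN2 and WT libraries have no number in common. Of 230 values of the log2 fold change of the members under 23 alternatives, 213 kept the direction and the side of the threshold, and 17 changed sign, all with an adjusted p above 0.05 in the tool used. With a covariate for the first or second run of numbers the values moved down without a call, to -0.83 for Chat, -0.88 for Slc5a7, -0.81 for Slc18a3, -0.83 for Calca, -0.65 for Mmp9 and 0.13 for Isl1. With the forebrain genes as a covariate Chat moved to 0.017 and Calca to 0.046. With Xist as a covariate every member moved down without a call, to -0.25 for Chat, -0.40 for Slc5a7, -0.41 for Slc10a4, -0.43 for Prph, -0.40 for Calca, -0.64 for Mnx1 and 0.32 for Isl1. In MFN2 libraries 72 to 76 against WT, Chat was at 0.16, Slc10a4 at 0.0048 and Calca at 0.13. Without MFN2 library 43 and WT library 47 together, a setting added after the data were seen, Chat was at 0.27, Slc5a7 at 0.23, Slc10a4 at 0.23, Prph at 0.17 and Calca at 0.24. Leaving out 1 library at a time gave a range of -0.28 to 0.12 for Chat, -0.40 to 0.072 for Slc5a7, -0.34 to 0.068 for Slc10a4, -0.36 to 0.0014 for Prph and -0.36 to 0.063 for Calca. The positive values came without MFN2 library 43 (Chat 0.010, Calca 0.014) or without WT library 47 (all 5). Mnx1, Slc18a3, Mmp9, Ache and Isl1 changed sign in none of these 23 alternatives. In smaller sets of libraries, Slc18a3 (0.0036) and Mmp9 (0.013) were above 0 in MFN2 libraries 72 to 76 without WT library 47, and Ache (0.072) in MFN2 libraries 41 and 42.

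The number of genes called between all MFN2 and WT mice was 0 with edgeR, 0 with limma (2275 at an unadjusted p under 0.05) and 200 with DESeq2, of which 0 were members. It was 9 with the forebrain covariate, 4 with Xist as a covariate and 2 without libraries 43 and 47, and leaving out 1 library gave 0 to 19, the highest without MFN2 library 43. For MFN2 libraries 41 to 43 against WT the count of 1 became 0 without the filter, 5 with DESeq2, 0 with limma, and 0 to 2 when 1 library was left out, 0 of them members. For MFN2 libraries 72 to 76 against WT the 3746 genes became 2350 to 4517 when 1 library was left out, the lowest without WT library 45, and the number of members called was 0 to 4, the 4 without WT library 47 (Chat, Slc5a7, Slc10a4 and Isl1). Library size alone in place of TMM moved the median log2 fold change of all genes in that comparison to 0.069 and made 2817 of 4166 calls higher, against 1746 of 3746. The median correlation among members was 0.93 and became 0.62 with Spearman's rho, 0.75 in the 6 libraries 41 to 47 other than 43, 0.53 without libraries 43 and 47, and 0.65 to 0.95 when 1 library was left out, the lowest without library 43. The cause of these changes was not tested.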
